A study of Mus with 9 samples.

Results

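The 10 genes described here form a network of imprinted growth regulators: Igf2, H19, Dlk1, Meg3, Rian, Mirg, Mest, Grb10, Plagl1 and Peg3. They were taken by gene symbol from a table of read counts for 55421 mouse genes, and all 10 were found. RNA was sequenced from 9 libraries labelled as atria, and as left atrium in the study's design text. The 3 MI_ART libraries (MI_ART 1, 2 and 3) came from infarcted mice given artesunate, an antimalarial drug derived from artemisinin. The 3 MI libraries (titled MI 2, MI 3 and MI 4) came from infarcted mice given vehicle. The 3 Sham libraries (Sham 1, 2 and 3) came from mice that had the same surgery without tying of the artery, plus vehicle. Their titles read CON and carry the suffix -AF, which the titles of the other groups lack. All groups were wild-type male C57BL/6J mice, 8 to 10 weeks old, and infarction was made by tying off the left anterior descending (LAD) coronary artery for good, with no reperfusion. The sources disagree on the artesunate regimen. In the design text it was 10 mg/kg on alternate days, begun before surgery and continued to day 7, while the treatment protocol gives 25 mg/kg daily for 7 days from surgery. The design text mentions several time points, the labels give no day of harvest, and the words mice and rats both occur. Nothing beyond the labels says that the libraries came from separate animals, so p-values measure the spread between these libraries.

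Imprinted genes are transcribed mainly from the copy inherited from a single parent, which is set by DNA methylation at control regions laid down in the germ line. H19, Meg3, Rian, Mirg and, in most tissues, Grb10 are expressed from the maternal copy, and Igf2, Dlk1, Peg3, Plagl1 and Mest from the paternal copy. Many of them are abundant in the fetus and fall after birth in mice, when growth slows, and PLAGL1 is a zinc finger transcription factor known to regulate other imprinted genes, Igf2 and H19 among them. The counts used here do not separate the parental copies, so they say nothing of imprinting itself.

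Total counts per library ranged from 68046341 to 83685313, and values are given as CPM, the usual depth-scaled read count, over library sizes corrected with TMM factors. Reads of mitochondrially encoded genes took 23.0% to 25.5% of the counts in MI_ART, 12.6% to 20.6% in MI and 37.7% to 43.1% in Sham. MI 4 stood apart from its group. The mean chi-square over genes was 538 against MI 2 and 432 against MI 3, while other pairs within a group lay between 63.6 and 122. Summed atrial muscle markers varied widely, from 1672 to 13873 CPM in MI_ART, 14426 to 25752 CPM in MI and 2522 to 9058 CPM in Sham. Summed ventricular muscle markers were at 15609 to 19935 CPM in MI_ART, 9812 to 17547 CPM in MI and 37499 to 40153 CPM in Sham. Transcripts of both lists were therefore present in all libraries labelled as atria. The ventricular list also holds general heart muscle genes such as Ttn and Tnni3, so its sum does not measure ventricular tissue alone.

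The comparison of MI with Sham asks which of these genes differ between infarcted and sham-operated mice. The atrial and the ventricular muscle marker sums given above also did not overlap between these groups, and their part in the differences was not tested. Of the 11 atrial markers none was called higher in MI and 1 was lower (median log2 fold change 0.19). Of the 10 ventricular markers none was higher and 7 were lower (median -1.50). Over all genes tested, 18.8% were called higher and 14.3% lower. H19, Dlk1, Meg3, Rian, Mirg and Mest were higher in MI, from 3.85-fold for Rian to 10.3-fold for Mest, with Dlk1 given only as a bound. Igf2, Grb10, Plagl1 and Peg3 did not pass the test, and no gene of the set was lower. The count was thus 6 of 10 higher and 0 lower, where 18.8% of the 19326 genes tested were called higher, 14.3% lower and 33.1% in either direction. Dlk1, Meg3, Rian and Mirg share 1 domain, as do Igf2 and H19, so the 10 genes are not independent. They were also chosen with earlier results of these data known. A gene was called at an adjusted p under 0.05 in edgeR's quasi-likelihood test, with Benjamini-Hochberg adjustment over all genes tested. The median log2 fold change was 2.03 over the 10 genes and 0.04 over all genes tested. The libraries of MI and Sham did not overlap for 7 of the 10, the 6 called genes and Igf2, all higher in MI, where 25.7% of all genes showed this. Scaling by total counts instead moved the median of all genes to 0.88 and called all 10 genes higher, with 9528 of 10172 calls over all genes being higher, against 3631 of 6399 with TMM. All 10 passed the filter on low counts, but Dlk1 passed only through the infarcted groups. Its call and its part in these counts are therefore not separate support. In bulk tissue, fewer cells of a type and less RNA per cell cannot be told apart.

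**Figure D1:**
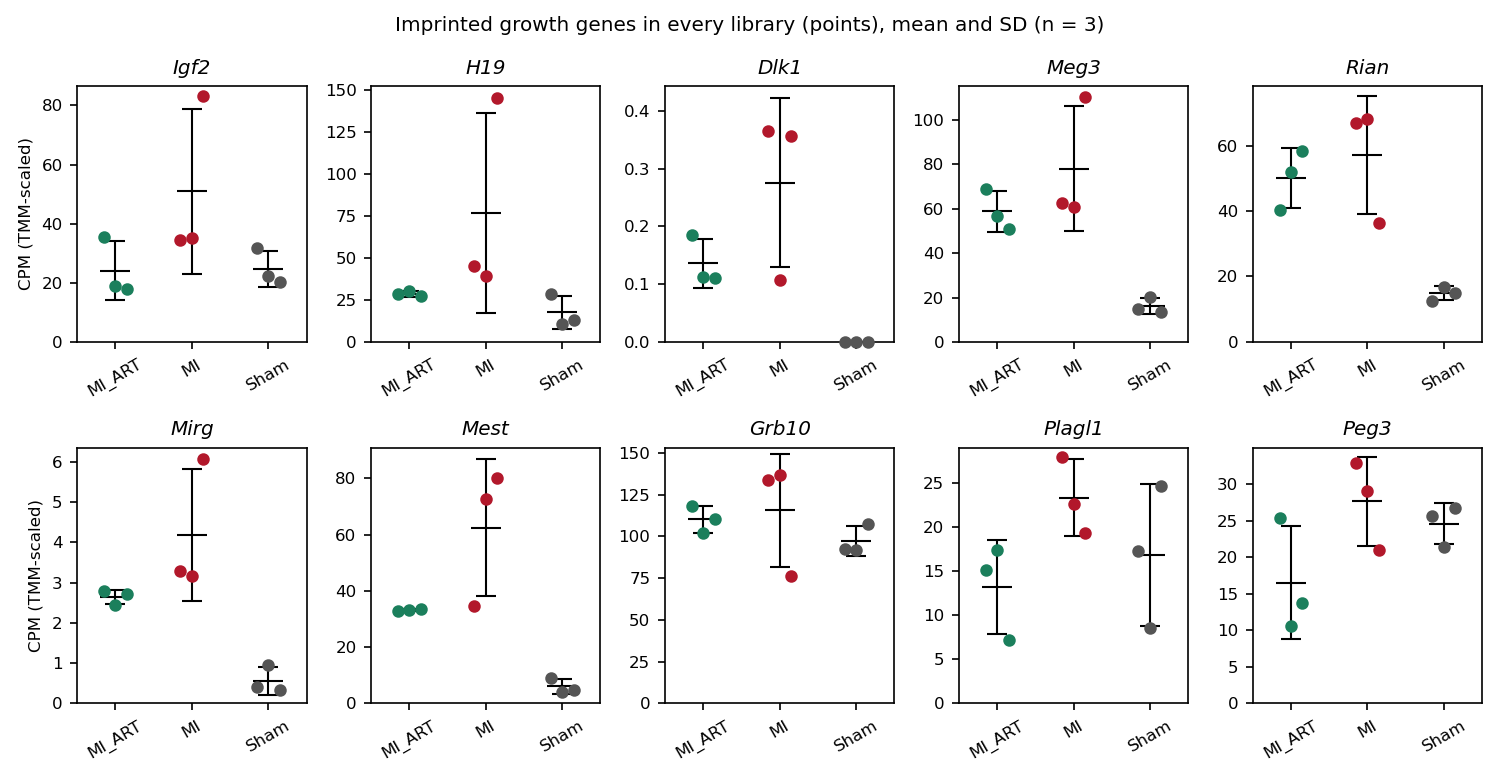
CPM of each gene (vertical axis, from 0) in the MI_ART, MI and Sham libraries. Points are libraries, and bars are the mean and SD of 3 libraries. Meg3, Rian, Mirg, Mest and Dlk1 lie above all Sham libraries in both infarcted groups, and MI 4 is the highest MI point for Igf2, H19, Meg3, Mirg and Mest.

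Markers of several other cell types moved with this contrast, in which 18.8% of all genes tested were called higher and 14.3% lower. The summed activated fibroblast markers, 14 genes, were at 6117 to 7338 CPM in MI_ART, 7309 to 8773 CPM in MI and 615 to 1181 CPM in Sham, and 13 of the 14 were called higher in MI than in Sham. The 12 macrophage markers summed to 2096 to 3975 CPM in MI_ART, 3059 to 3686 CPM in MI and 381 to 567 CPM in Sham, with all 12 called higher in MI. All 15 cell cycle genes were called higher in MI, and their sums were 283 to 466 CPM in MI_ART, 407 to 620 CPM in MI and 53.5 to 73.4 CPM in Sham. Epicardial and mesothelial markers, of which 7 of 13 were called higher, summed to 129 to 292 CPM in MI_ART, 251 to 399 CPM in MI and 99.9 to 163 CPM in Sham. Resting fibroblast markers, with 6 of 13 higher and 3 lower, summed to 2549 to 3670 CPM in MI_ART, 2290 to 3310 CPM in MI and 3647 to 3955 CPM in Sham. Adipocyte markers, 2 of 12 lower, summed to 578 to 904 CPM in MI_ART, 480 to 1100.2 CPM in MI and 1047 to 1138 CPM in Sham. No defining marker of these lists was at 0 throughout a group. In other lists, 4 of 11 endothelial and 3 of 11 smooth muscle and pericyte markers were lower in MI and none was higher. Of 13 tested neuronal and glial genes, 2 were higher and none was lower. The part of these cells in the changes of the imprinted genes was not tested.

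Igf2 encodes insulin-like growth factor 2, the main fetal growth factor of this network, and lies on distal chromosome 7 (7:142650768-142666816, GRCm38). Its level was 35.5, 18.9 and 18.0 CPM in MI_ART 1, 2 and 3, 34.6, 35.2 and 83.1 CPM in MI 2, MI 3 and MI 4, and 31.7, 22.3 and 20.4 CPM in Sham 1, 2 and 3. Every MI library was above every Sham library, but MI 2 and MI 3 only narrowly exceeded Sham 1, and MI_ART overlapped both other groups. On the log2 scale MI over Sham was 1.04 (SE 0.39, adjusted p = 0.0683). Without MI 4 it was 0.49 (adjusted p = 0.257), without MI 2 it was 1.25 (adjusted p = 0.0464), and DESeq2 gave 1.05 with an adjusted p of 0.0263. Between MI_ART and Sham the log2 fold change was -0.04 (adjusted p = 0.958), and 0.69 with total counts.

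H19, the noncoding RNA that shares its enhancers and control region with Igf2, lies 72.6 kb from it (7:142575530-142578146). Its level was 28.4, 30.1 and 27.1 CPM in MI_ART, 45.3, 39.2 and 146 CPM in MI, and 28.8, 10.7 and 13.2 CPM in Sham. MI 4 held more than 3 times the level of either other MI library, and Sham 1 stood within the narrow MI_ART range. The log2 fold change of MI over Sham was 2.13 (SE 0.53, adjusted p = 0.0120). It was 1.27 without MI 4 (adjusted p = 0.0248), and 1.95 without Sham 3, where the call was lost (adjusted p = 0.0555). Between MI_ART and Sham it was 0.70 (adjusted p = 0.384).

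The ratio of Igf2 to H19 counts within a library was 1.25, 0.629 and 0.667 in MI_ART, 0.762, 0.896 and 0.571 in MI, and 1.10, 2.08 and 1.55 in Sham. Each Sham library held more Igf2 than H19 counts and each MI library fewer, so the groups did not overlap. The log2 ratio differed by -1.06 between MI and Sham (two-sided exact permutation test, p = 0.1, adjusted p = 0.3 over 12 relations), which is the smallest p that 3 against 3 libraries allows. This compares a ratio between groups and says nothing of the relative abundance of the pair, since transcript lengths were not at hand.

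Dlk1, Meg3, Rian and Mirg belong to the imprinted Dlk1-Dio3 domain on distal chromosome 12. Dlk1 (12:109452485-109463336) encodes a transmembrane protein with repeats like those of epidermal growth factor, related to Notch ligands and found on preadipocytes and fetal cells. It was barely detected. Its counts were 15, 9 and 9 in MI_ART, 32, 10 and 33 in MI, and 0 in each Sham library. In CPM this was 0.185, 0.113 and 0.111 in MI_ART and 0.364, 0.107 and 0.356 in MI, against a floor of 3 counts per library at 0.0553, 0.0592 and 0.0574 CPM in Sham 1, 2 and 3. Dlk1 was thus at least 4.81-fold higher in MI (adjusted p = 0.00543) and at least 2.38-fold higher in MI_ART (adjusted p = 0.0182), both against Sham. These bounds cover only the counting error of the Sham zeros, and take the observed mean of the infarcted libraries as it stands. Dlk1 passed the filter on low counts only through the infarcted groups, so these p-values are not separate support for the difference. The call for MI_ART over Sham was lost in limma-voom (adjusted p = 0.0562) and without MI_ART 1 (adjusted p = 0.0636).

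Meg3 (12:109540996-109571729) is a maternally expressed long noncoding RNA that opens a long run of noncoding transcripts. Its level was 68.8, 56.9 and 50.9 CPM in MI_ART, 62.7, 60.8 and 110 CPM in MI, and 15, 20.2 and 13.4 CPM in Sham. All 6 infarcted libraries lay above the 3 Sham libraries, and MI 4 stood alone at the top. Meg3 had a log2 fold change of 2.27 in MI over Sham (SE 0.28, adjusted p = 0.000321) and 1.86 in MI_ART over Sham (SE 0.27, adjusted p = 0.00140).

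Rian, the host of a cluster of small nucleolar RNAs (12:109603945-109661716), was at 40.2, 51.9 and 58.3 CPM in MI_ART, 66.8, 68.1 and 36.4 CPM in MI, and 12.6, 16.9 and 15 CPM in Sham. It too separated both infarcted groups from Sham, but here MI 4 was the lowest MI library. Its log2 fold change was 1.94 in MI over Sham (SE 0.26, adjusted p = 0.000553) and 1.76 in MI_ART over Sham (SE 0.26, adjusted p = 0.00156).

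Mirg, the host of a cluster of microRNAs (12:109734981-109749458), was at 2.79, 2.45 and 2.71 CPM in MI_ART, 3.30, 3.17 and 6.07 CPM in MI, and 0.406, 0.948 and 0.326 CPM in Sham. The 3 groups did not overlap at all, in the order MI, MI_ART and Sham from high to low. The log2 fold change was 2.90 in MI over Sham (SE 0.45, adjusted p = 0.00116) and 2.24 in MI_ART over Sham (SE 0.45, adjusted p = 0.00698).

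Within this domain the transcripts did not keep a fixed proportion. Rian over Meg3 counts were 0.585, 0.913 and 1.15 in MI_ART, 1.07, 1.12 and 0.330 in MI, and 0.842, 0.837 and 1.12 in Sham. MI 4 was the lowest of all and MI_ART 1 the next, and the groups overlapped (MI against Sham, log2 difference -0.34, exact permutation p = 0.8). Mirg over Meg3 was 0.0406, 0.0431 and 0.0533 in MI_ART, 0.0527, 0.0522 and 0.0549 in MI, and 0.0271, 0.0469 and 0.0244 in Sham. The MI values were tightly grouped and above every Sham value, by a log2 difference of 0.71 (exact permutation p = 0.1, adjusted p = 0.3). The log2 ratio of Dlk1 to Meg3, with 1 count added to each, differed by 1.5 between MI and Sham, but in Sham it is set by the added count.

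**Figure D2:**
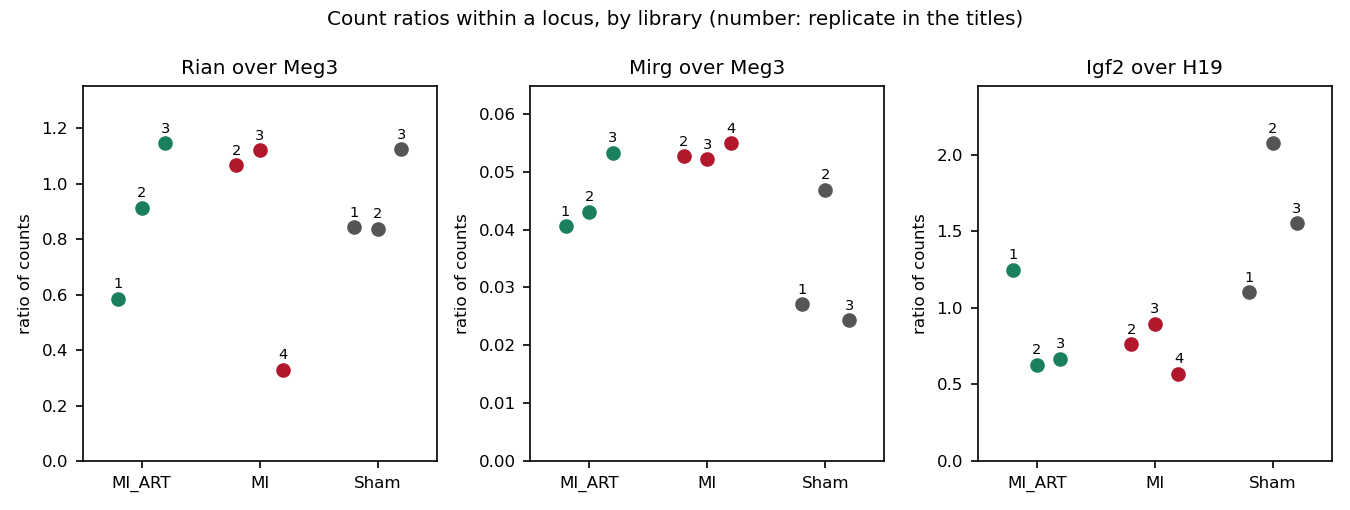
Ratio of raw counts within a library (vertical axis, from 0) for Rian over Meg3, Mirg over Meg3 and Igf2 over H19 in MI_ART, MI and Sham. Points are libraries with their replicate numbers, and MI 4 is the lowest point of the Rian panel, at 0.330.

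Small RNA genes in and near these loci had few counts, which do not measure the mature small RNAs. Of 58 names listed, 55 were matched in the table, all of them microRNA genes. Of these, 34 had no count in any library, none passed the filter, and the highest total over all 9 libraries was 32 counts, for Mir410 inside Mirg. By RefSeq position, 18 microRNA genes lie within the spans of the members. The 11 small nucleolar RNA genes in these spans lie within Rian, of which 5 were found in the table under the same name, with at most 5 counts each in all. Several loci overlap other genes, and no source used here gives the strand setting of the counting. Rtl1, the paternally expressed retrotransposon-like gene on the opposite strand, spans the end of Meg3 and the start of Rian. It had 254 counts in all, against 38214 for Meg3 and 30064 for Rian. Igf2os, which overlaps Igf2, had 56 counts in all, against 23798 for Igf2. Rtl1 had a log2 fold change of 2.53 in MI over Sham (adjusted p = 0.0543).

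Mest, a paternally expressed member of the alpha/beta hydrolase family on chromosome 6 (6:30733506-30748466), had the highest fold change among the genes with counts in every group. Its level was 32.8, 33.3 and 33.6 CPM in MI_ART, 34.8, 72.5 and 80.2 CPM in MI, and 9.13, 4.21 and 4.92 CPM in Sham. All infarcted libraries were above all Sham libraries, and the MI_ART libraries were almost identical, with a ratio of highest to lowest of 1.03 against 2.31 in MI. Mest had a log2 fold change of 3.36 in MI over Sham (SE 0.38, adjusted p = 0.000213) and 2.45 in MI_ART over Sham (SE 0.36, adjusted p = 0.00151). The 3′ end of Mest overlaps Copg2, a coat protein gene with 32583 counts in all, whose log2 fold change of MI over Sham was -0.26 (adjusted p = 0.320).

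Grb10, Plagl1 and Peg3 lie at separate loci and did not pass the test in any comparison. Grb10 (11:11930499-12037428) encodes an adaptor that binds insulin and IGF receptors and restrains growth. Its level was 119, 102 and 110 CPM in MI_ART, 134, 137 and 76.6 CPM in MI, and 92.3, 92.0 and 108 CPM in Sham. MI 4 was below every other library, while MI 2 and MI 3 were above all others. The log2 fold change of MI over Sham was 0.25 (SE 0.22, adjusted p = 0.420), and without MI 4 it was 0.48 and was called (adjusted p = 0.0135).

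Plagl1 (10:13090832-13131694) was at 15.1, 17.4 and 7.22 CPM in MI_ART, 28.0, 22.6 and 19.3 CPM in MI, and 17.3, 8.55 and 24.6 CPM in Sham. Sham spanned nearly the whole range, so MI and Sham overlapped (log2 fold change 0.47, SE 0.40, adjusted p = 0.404). Peg3 (7:6703892-6730462), a large zinc finger protein, was at 25.3, 10.5 and 13.8 CPM in MI_ART, 32.9, 29.0 and 20.9 CPM in MI, and 25.6, 21.4 and 26.7 CPM in Sham. MI and Sham overlapped here too (log2 fold change 0.17, SE 0.31, adjusted p = 0.714). For MI_ART over Sham the log2 fold change of Peg3 was -0.57 (adjusted p = 0.231; 0.18 with total counts), and without MI_ART 1 it was -1.02 and was called lower (adjusted p = 0.0375). These intervals do not show equal levels: the 95% interval of MI over Sham ran from -0.52 to 0.86 for Peg3 and from -0.43 to 1.37 for Plagl1.

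**Figure D3:**
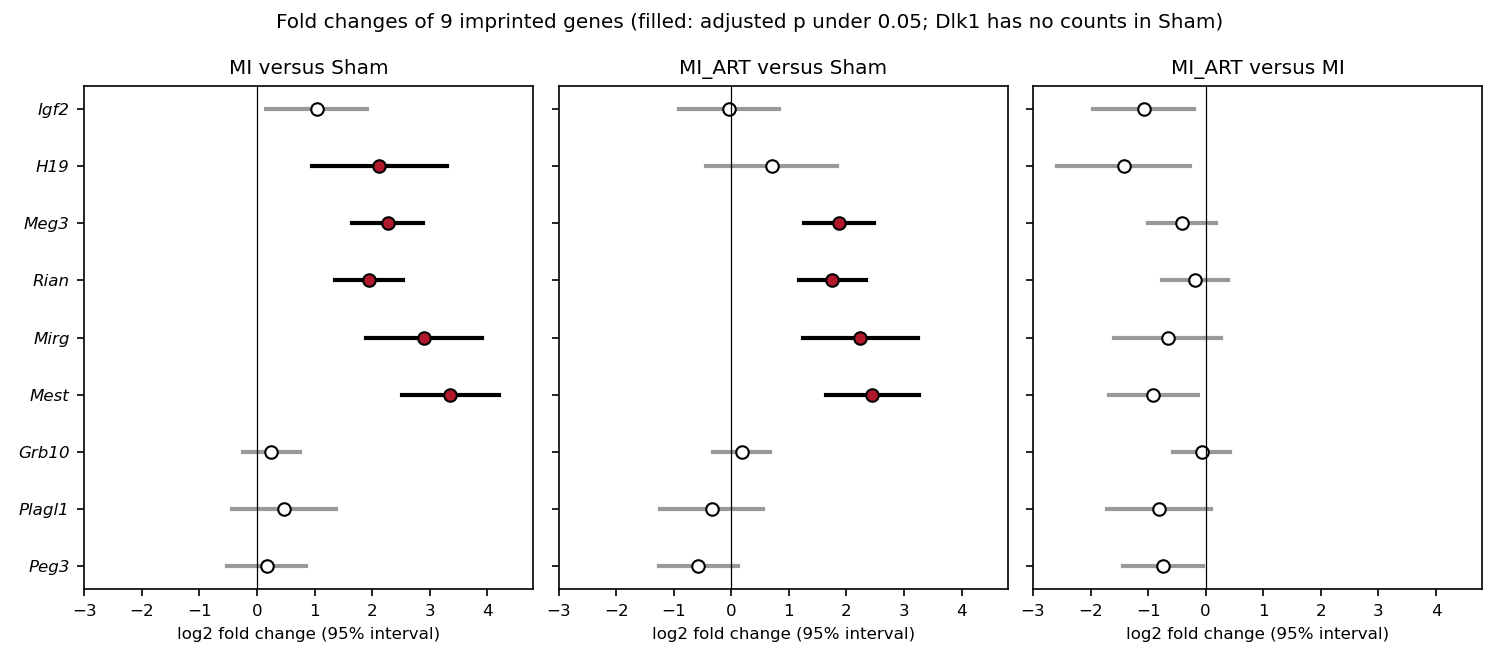
Log2 fold changes (horizontal axis) with 95% intervals for 9 of the genes in MI over Sham, MI_ART over Sham and MI_ART over MI. Filled points passed an adjusted p of 0.05, and Dlk1 is left out because Sham held no counts. Meg3, Rian, Mirg and Mest are filled in both comparisons with Sham, H19 only in MI over Sham, and none in MI_ART over MI.

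The comparison of MI_ART with MI asks what artesunate changes after infarction. The atrial muscle marker sums given above also did not overlap between these groups, and their part was not tested. No atrial marker of the 11 was called. None of the 10 genes passed the test, where 0.0103% of all genes, 2 in number, were called by edgeR. At an unadjusted p under 0.05, 4 of the 10 genes (H19, Igf2, Peg3 and Mest) and 1346 of all genes would pass. DESeq2 called 93 genes and none of the 10, and limma-voom called 2 genes and none of the 10. The log2 fold change was below 0 for all 10, with a median of -0.78 against 0.00 over all genes, and since the genes share loci and libraries these signs are not independent. H19 had -1.43 (SE 0.51, adjusted p = 0.709), Igf2 -1.08 (SE 0.39, adjusted p = 0.709), Mest -0.91 (SE 0.34, adjusted p = 0.709) and Peg3 -0.74 (SE 0.31, adjusted p = 0.709). Plagl1 was at -0.82, Mirg at -0.66, Meg3 at -0.41, Rian at -0.19 and Grb10 at -0.07, and Dlk1 at -1.01 on counts of 9 to 33 per library. H19, Mirg, Plagl1 and Mest had every MI_ART library below every MI library, where 6.52% of all genes showed this and 7.38% the reverse. Without MI 4 the value was -0.57 for H19, -0.53 for Igf2, -0.29 for Mirg, -0.69 for Mest and -0.071 for Meg3, all nearer 0, but -0.91 for Peg3, -0.93 for Plagl1 and -0.43 for Rian. Rian was at -0.058 without MI 2, -0.040 without MI 3 and -0.051 without MI_ART 1.

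The comparison of MI_ART with Sham shows what differs from sham surgery with artesunate given. The ventricular muscle marker sums also did not overlap here, and their part was not tested. Dlk1, Meg3, Rian, Mirg and Mest were higher in MI_ART, which is 5 of 10, where 12.9% of all genes were called higher, 7.41% lower and 20.3% in either direction. Each of these 5 had every MI_ART library above every Sham library, where 25.4% of all genes did. H19 passed in MI over Sham and not in MI_ART over Sham, but its difference between MI_ART and MI did not pass either. Scaled by total counts, all genes had a median of 0.75 and 8032 of 8156 calls were higher, against 2488 of 3921 with TMM, and Grb10 was called as well. Both infarcted groups were set against the same Sham libraries, and Dlk1, Meg3, Rian and Mirg share 1 domain, so these counts are not independent. Dlk1 is counted among the 5, with the limit from the filter given above.

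**Figure D4:**
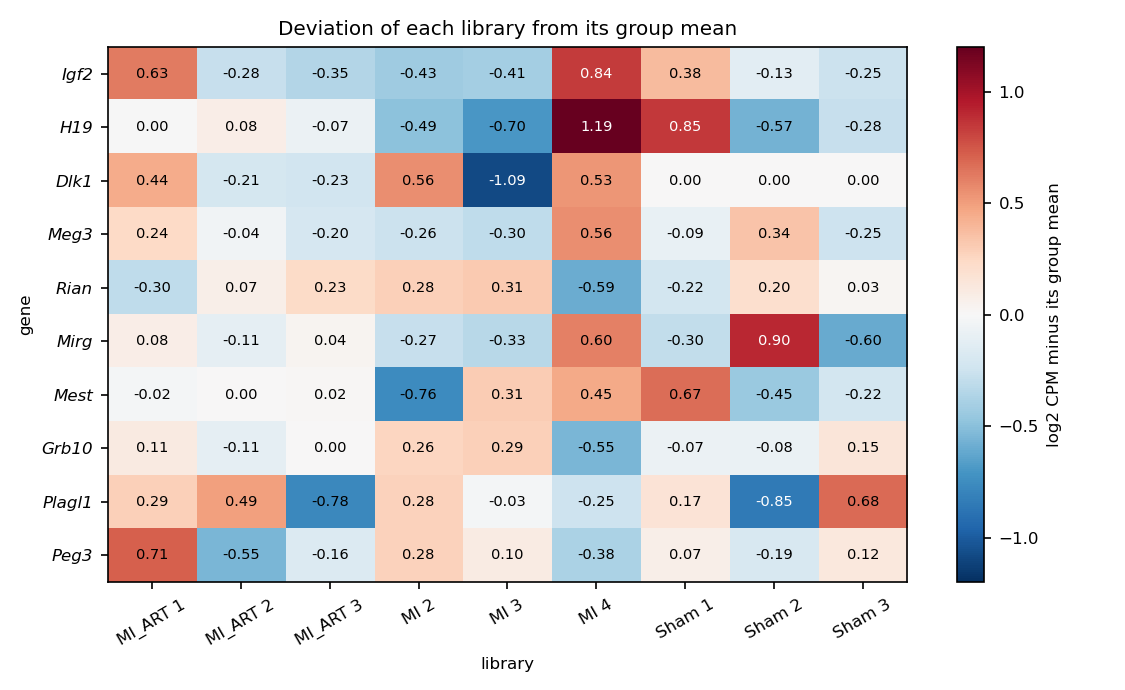
Log2 CPM of each gene in each library minus the mean of its group, as colour and number, with MI_ART libraries on the left, MI in the middle and Sham on the right. In MI 4, H19 is at 1.19, Igf2 at 0.84, Mirg at 0.60 and Meg3 at 0.56, while Rian is at -0.59 and Grb10 at -0.55.

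Within groups the genes did not move as a block. MI 4 was the highest MI library for 5 genes (Igf2, H19, Meg3, Mirg and Mest) and the lowest for 4 (Rian, Grb10, Plagl1 and Peg3). In Sham 1, H19 deviated from its group mean by 0.85, Mest by 0.67 and Igf2 by 0.38 on the log2 scale, while Meg3 was at -0.09. Sham 2 instead had Mirg at 0.90 and Plagl1 at -0.85. In MI_ART 1, Igf2 was at 0.63 and Peg3 at 0.71, with H19 at 0.00.

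Genes next to the imprinted clusters were examined in windows of 800 kb around H19 and Meg3, a width chosen after values had been seen. Around H19, 9 of 23 other tested genes were higher in MI than in Sham, and the predicted gene Gm45889 was lower (log2 fold change -2.31, adjusted p = 0.0421), where 18.8% of all genes were higher and 14.3% lower. Syt8 and Trpm5, with 4 and 10 Sham counts in all, are among the 9. They passed the filter on low counts only through the infarcted groups, so their calls are not separate support. Among the higher were Lsp1, a leukocyte actin-binding protein (log2 fold change 1.91, adjusted p = 0.000418), and Ctsd, the lysosomal protease cathepsin D (1.07, adjusted p = 0.0116). Between H19 and these, Mrpl23, a mitochondrial ribosomal protein gene 34.8 kb from H19, was at -0.16 (adjusted p = 0.509). The gene of troponin T of fast skeletal fibres, Tnnt3, lies 59.3 kb from H19. It was at 2.42, 2.80 and 1.29 CPM in MI_ART, 21.8, 33.1 and 63.5 CPM in MI, and 0.774, 0.671 and 0.421 CPM in Sham. The groups did not overlap, and Tnnt3 was the only gene of any list used here that passed in MI_ART over MI (log2 fold change -4.18, adjusted p = 0.0447). That call was lost in 14 of 20 alternatives run after it was seen, although the log2 fold change stayed between -4.47 and -3.39. It was lost with only these groups fitted (adjusted p = 0.409) and without any single library except MI 2, where adjusted p was 0.0552 to 0.293. Tnni2, the fast skeletal troponin I, 131 kb from H19, was at 1.46, 4.06 and 1.44 CPM in MI_ART, 15.4, 22.2 and 44.2 CPM in MI, and 2.03, 0.731 and 2.74 CPM in Sham. Its MI_ART over MI value of -3.55 did not pass (adjusted p = 0.455). Of the 11 tested skeletal muscle and myogenic genes, these 2 were higher in MI than in Sham and 1 was lower, beside 18.8% and 14.3% of all genes. The lower was Ckm, the muscle creatine kinase that heart also expresses (-2.19, adjusted p = 0.000166). That list of 21 genes summed to 720 to 1037 CPM in MI_ART, 767 to 962 CPM in MI and 2367 to 2411 CPM in Sham. Of the myogenic factors, Pax7, Myf5 and Myf6 had no count in any library, Myog had 5 counts, all in MI 4, and Myod1 had 4, all in Sham 2.

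Around Meg3, 3 of 11 other tested genes were higher in MI than in Sham and none was lower, where 18.8% of all genes were higher and 14.3% lower. Dio3, the imprinted thyroid hormone-inactivating deiodinase at the far end of the domain, was at 1.16, 0.925 and 1.23 CPM in MI_ART, 1.16, 1.79 and 4.74 CPM in MI, and 0, 0 and 0.0766 CPM in Sham. The Sham total was 4 counts, all in Sham 3, so the size of its fold change is loosely known (MI over Sham adjusted p = 0.00108, MI_ART over Sham adjusted p = 0.00497). Begain, upstream of Dlk1, had a log2 fold change of 3.21 in MI over Sham (adjusted p = 0.0102), and the predicted gene Gm3379 of 1.35 (adjusted p = 0.0170). Begain was at 0.498, 0.0790 and 0.0766 CPM in Sham. Like Dlk1, Dio3 and Begain passed the filter on low counts only through the infarcted groups. Their calls and their part in the count of 3 are therefore not separate support. The genes farther upstream within the window did not pass, such as Yy1 at -0.13 (adjusted p = 0.605) and Wars at 0.02 (adjusted p = 0.949). Evl, listed as a neighbour of the domain but outside this window, was higher in MI (1.17, adjusted p = 0.00178) and in MI_ART (0.88, adjusted p = 0.0126) than in Sham.

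**Figure D5:**
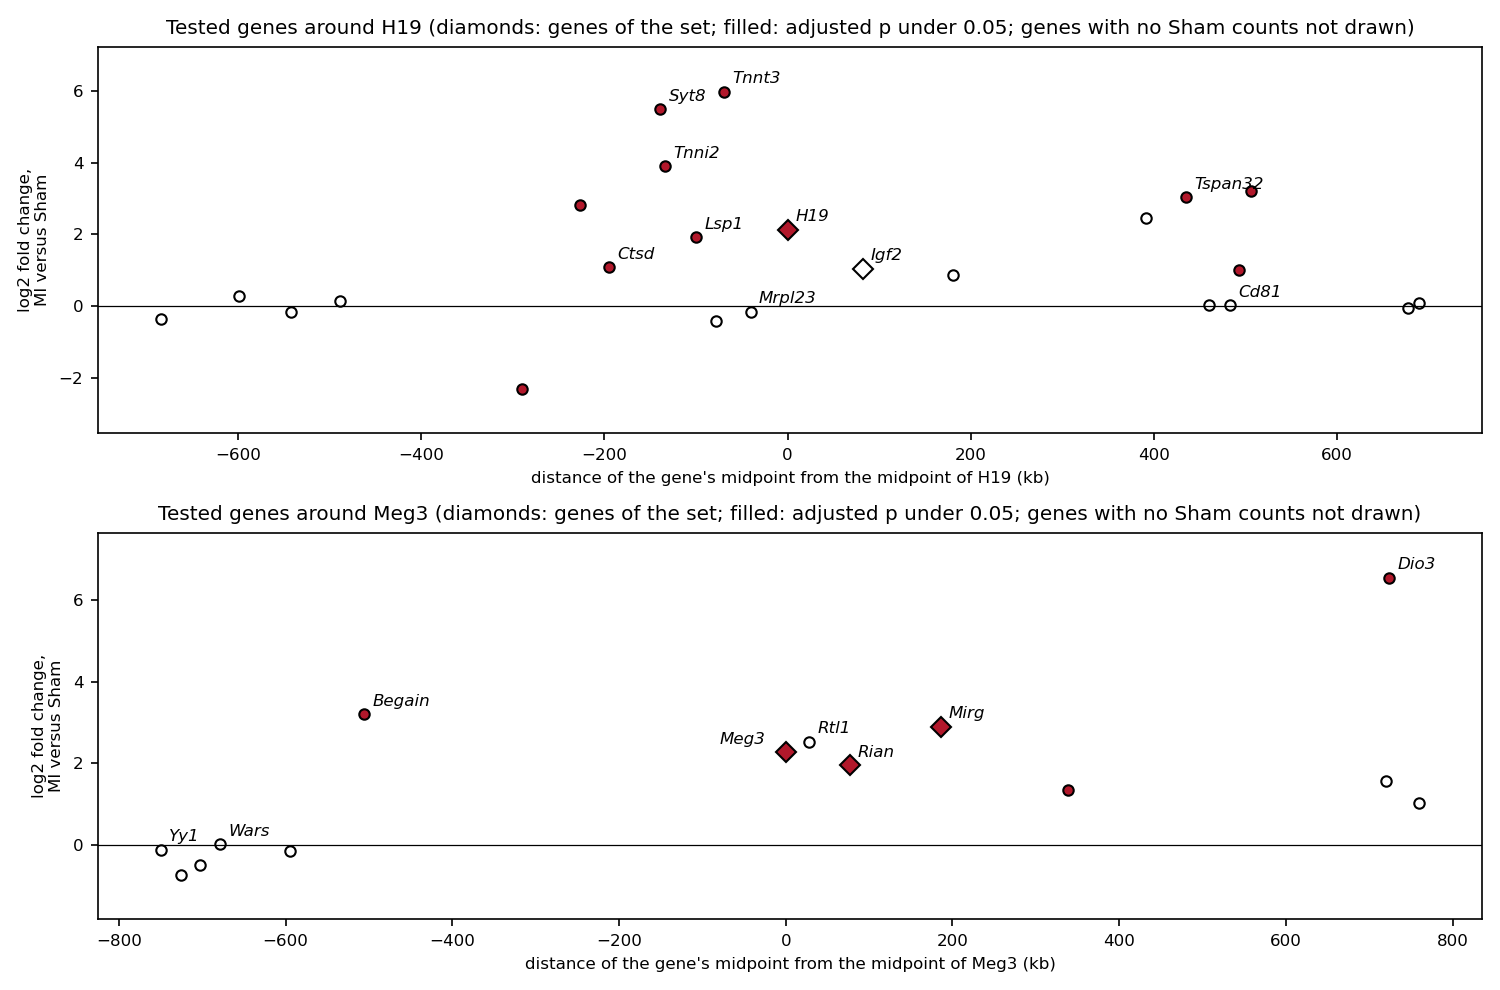
Log2 fold change of MI over Sham (vertical axis) for tested genes by the distance of their midpoint from that of H19 (upper panel) or Meg3 (lower panel), in kb. Diamonds are genes of the set, filled symbols passed an adjusted p of 0.05, and genes without Sham counts, Dlk1 among them, are not drawn. Tnnt3 stands highest around H19 and Dio3 highest around Meg3.

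Of 36 other imprinted genes tested, 6 were higher in MI than in Sham and 7 were lower, near the 18.8% and 14.3% of all genes, with a median log2 fold change of -0.26. Higher genes included Dio3, with the limit from the filter given above. Others were Gatm, an enzyme of creatine synthesis (1.86, adjusted p = 0.00166), and Ndn, the growth suppressor necdin (1.17, adjusted p = 0.00202). Peg13, a noncoding RNA, was lower (-1.42, adjusted p = 0.000777). Cdkn1c, the maternally expressed cell cycle inhibitor p57 in the neighbouring domain of chromosome 7, was at 5.77, 4.93 and 5.36 CPM in MI_ART, 4.69, 4.20 and 8.09 CPM in MI, and 14.4, 13.4 and 12.2 CPM in Sham. It was lower in MI (-1.23, adjusted p = 0.00528) and in MI_ART (-1.31, adjusted p = 0.00675) than in Sham. In MI_ART over MI none of the 36 passed. In MI_ART over Sham 5 were higher and 4 lower, where 12.9% and 7.41% of all genes were.

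Among 28 tested partners of IGF2, DLK1 and GRB10, 7 were higher in MI than in Sham and 5 were lower, where 18.8% and 14.3% of all genes were. The receptors of IGF2 did not pass: Igf1r, the signalling receptor, was at -0.13 (adjusted p = 0.608), and Igf2r, the imprinted receptor that clears IGF2, was at -0.02 (adjusted p = 0.950). The ligand Igf1 was higher (1.57, adjusted p = 0.000531), as were the binding protein Igfbp3 (1.32, adjusted p = 0.00177) and Fn1, fibronectin, which binds DLK1 (4.45, adjusted p = 4.9e-05). Grb14, the relative of Grb10 that also binds the insulin receptor, was lower (-1.53, adjusted p = 0.00126). In MI_ART over Sham 5 of the 28 were higher and 1 lower, where 12.9% and 7.41% of all genes were.

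Of 21 tested genes that maintain imprints or DNA methylation, 6 were higher in MI than in Sham and none was lower, beside the same shares over all genes. They included Dnmt1, the maintenance methyltransferase (1.40, adjusted p = 0.000449), its cofactor Uhrf1 (4.55, adjusted p = 0.000100), Trim28, the corepressor that guards imprints (1.02, adjusted p = 0.0111), and Ezh2, the histone H3 methyltransferase of Polycomb (1.12, adjusted p = 0.00274). Dnmt1, Uhrf1 and Ezh2 are also known to follow cell division, and the cell cycle sums given above moved with them, whose part was not tested. In MI_ART over Sham 4 of the 21 were higher and none was lower, where 12.9% and 7.41% of all genes were. Of 15 tested genes linked to PLAGL1 or PEG3, 5 were higher in MI than in Sham and 3 were lower, where 18.8% and 14.3% of all genes were. They included Cdkn1a, the cell cycle inhibitor p21 (2.89, adjusted p = 0.000110), Trp53 (1.28, adjusted p = 0.00233), Col1a1 (4.51, adjusted p = 6.09e-05) and Slc2a4, the insulin-responsive glucose transporter, which was lower (-1.52, adjusted p = 0.000622). In MI_ART over Sham 4 of these 15 were higher and 2 lower, beside the same 12.9% and 7.41% of all genes. The median log2 fold changes of the last 3 lists in MI over Sham, at 0.16, 0.03 and 0.15, lay near that of all genes.

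The genes whose log2 CPM ran most like each member over the 9 libraries were found by Pearson's r, as a description. For Meg3 they were Sh2b2 (0.996) and Ampd2 (0.995), for Mest Tnfrsf10b (0.995) and Cenpt (0.994), and for Mirg Vim (0.994), the intermediate filament vimentin, and Dok3 (0.993). Rian had Dsn1 (0.985) and Egr2 (0.984), H19 had Cdc42ep2 (0.987) and Mettl1 (0.977), and Igf2 had Rnf121 (0.966) and Dtnb (0.944). Dlk1 ran with Crabp2 and Fam20c (both 0.987), Grb10 with Copa (0.975) and Washc4 (0.971), Plagl1 with Slc16a12 (0.946) and Slc39a8 (0.928), and Peg3 with Pcdhb19 (0.894) and Zranb2 (0.883). The libraries fall into groups, so for genes that separate Sham from infarcted libraries part of each value reflects that separation. For every member the values are the 2 highest of all genes compared, over only 9 libraries. Part of their height therefore comes from the picking itself.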

How the data were processed

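Values are raw read counts per gene, deposited by the authors without normalization. Per the submitters' processing notes, the build was GRCm38 and the tools were HISAT, featureCounts 1.5.0-p3 and DESeq 1.8.3. Per the labels' protocols, a SMARTer kit was used on 1.3 µg of RNA. No source used here gives the strand setting or the handling of reads mapping to several places. CPM are counts over TMM-scaled library size, and total counts set the depth given with the results. Counts were fitted in R 4.3.3 with edgeR 4.0.16 (filterByExpr, 19326 genes kept, TMM, 1 mean for each of 3 groups over all 9 libraries), and quasi-likelihood tests were adjusted by Benjamini-Hochberg. The fit was tested on simulated counts with the same relative spread for every gene and no outlying library. An outlying library such as MI 4 was thus not covered. A group without counts was set at 3 counts per library. Alternatives used DESeq2 1.42.0, limma 3.58.1 (voom), other scalings and filters, and left-out libraries. Named genes were the 10 members and the 2 genes most like each member. Of 19 context lists, the other imprinted genes, the partners, the imprint maintenance genes and the PLAGL1 or PEG3 genes each had 4 genes named. These were the 4 with the smallest p in MI over Sham, and not every gene with a small p in the remaining lists was named. Cdkn1c, Copg2, Igf1r, Igf2r, the troponins and the other neighbours named were chosen after their values were seen. The members and lists were chosen with earlier results of these data known, and some genes stand in more than 1 list. Coordinates come from RefSeq (GRCm38.p6). No sequence was at hand.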

Additional observations from a re-analysis of the deposited data

How the results depend on the processing

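The count of the 10 genes called in MI over Sham, 6, became 10 when libraries were scaled by total counts, a setting that moved the median of all genes to 0.88 in that comparison and 0.75 in MI_ART over Sham. Peg3, Plagl1 and Grb10 then lay at 1.02, 1.35 and 1.10 in MI over Sham, and in MI_ART over Sham the values of Igf2, Peg3 and Plagl1 turned to 0.69, 0.18 and 0.43. Under the other settings the count was 5 to 8 in MI over Sham, 0 in MI_ART over MI and 4 or 5 in MI_ART over Sham, apart from 6 with total counts. Dlk1 was not tested under a minimum of 1 CPM, nor in MI_ART over Sham with only those groups fitted. Leaving out 1 library gave 5 to 7, 0 and 5. Replicate numbers did not pair the libraries: same-numbered deviations correlated at -0.05 to 0.08, and 3 of 8 libraries ran best with their own number. With the replicate block, 8, 0 and 4 of the 10 were called: Igf2 (adjusted p = 0.00714) and Grb10 (adjusted p = 0.0257) passed in MI over Sham, and Dlk1 did not pass in MI_ART over Sham (adjusted p = 0.0559). Igf2 in MI_ART over Sham was 0.010 with only those groups fitted, 0.13 without both MI 4 and MI_ART 3, and -0.42 to 0.18 with 1 library left out. Meg3 in MI_ART over MI was 0.023 without both. With 1 library left out, Grb10 in MI_ART over MI ran from -0.29 to 0.070 and Plagl1 in MI_ART over Sham from -0.66 to 0.039. The log2 Igf2 to H19 ratio in MI_ART over MI ran from -0.17 to 0.32, and that of Rian to Meg3 from -0.64 to 0.24 in MI over Sham, -0.36 to 0.52 in MI_ART over MI and -0.34 to 0.14 in MI_ART over Sham. With 0.5 count added, Dlk1 over Meg3 moved to 2.46 in MI over Sham and 1.99 in MI_ART over Sham. The cause of these shifts was not tested. With 3 libraries per group, exact tests cannot go below 0.1, and the low counts of Dlk1, Mirg in Sham and Dio3 limit their fold changes.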
